A study of Chlamydomonas reinhardtii with 12 samples.

Results

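Plastocyanin and PSBQ are a pair of small proteins that work inside the thylakoid lumen of the chloroplast and are encoded in the nucleus. Their transcripts were followed in the green alga Chlamydomonas reinhardtii through loci CHLRE_03g182551v5 (PCY1, plastocyanin) and CHLRE_08g372450v5 (PSBQ), which are 2 of the 100 loci that the platform's annotation places on the array. Each locus had 1 array element printed as 4 copies, so 8 of 11520 spots belong to them. They were chosen by their measured log2 ratios between the strains after 6 h of high light, where both elements were among those with a clearly negative ratio. Every 6 h value of these 2 genes, and every change of theirs that contains it, is therefore a description without a test.

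PSBQ is an extrinsic subunit of photosystem II that sits on the lumen side of the oxygen-evolving complex and helps to hold the calcium and chloride needed to split water. Plastocyanin is a soluble copper protein that takes electrons from the cytochrome b6f complex and hands them to photosystem I; in copper-starved Chlamydomonas a heme protein, cytochrome c6, does the same work. They thus act at the start and near the end of the same electron transport chain, on the side of the membrane where protons accumulate in bright light.

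The double mutant npq1 lor1, which lacks zeaxanthin and lutein, was set against the wild-type strain CC-125 in low light, after 1 h of high light and after 6 h of high light. Total RNA from the mutant and from wild type shared each of 12 two-colour slides, with 2 biological samples per time point and 2 slides of exchanged channels for each sample; in one slide of each pair npq1 lor1 was in channel 1 and in the other wild type was. Growth medium, light intensities, cell densities and the number of independent isolates of the mutant are unknown here, and each strain stands for its own genetic background. Such a ratio compares shares of total RNA, so that a change in the number of contributing cells and a change in RNA per cell cannot be told apart.

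All values are log2 ratios with the sign the authors deposited. According to the labels, Cy5 was divided by Cy3 where npq1 lor1 was in channel 1, and Cy3 by Cy5 where wild type was, and the dye of each channel is not named. Wild type over npq1 lor1 is the likely direction, from the order of the strains in the titles and because this follows if channel 1 was Cy3. It runs opposite to a mutant over wild type ratio: under that reading a negative value means more transcript in npq1 lor1, and a log2 ratio of -1 is a 2-fold difference. Averages over exchanged slides assume that both orientations carry one strain direction, which the label ratios give if each channel kept its dye. The labels do not state this. Slides of exchanged channels correlated negatively over all elements in 33 of 36 pairs (r from -0.57 to 0.13). Each slide's value is therefore given by its channel orientation throughout. Zeros, read as spots without a value, made up 7.36% to 43.4% of the spots on a slide, and on the wild-type-first slide of sample 2 at 1 h all spots of the first copy (100%) were 0. Of their 48 spot values each, PSBQ lacked 9 and PCY1 lacked 3 (18.8% and 6.25%, against 17.6% over all spots).

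PSBQ had a negative ratio on every one of the 12 slides and in 37 of 39 spots with a value. In low light the slides with npq1 lor1 in channel 1 gave -0.21 and -0.39 for biological samples 1 and 2, and the slides with wild type in channel 1 gave -0.24 and -0.43. At 1 h of high light they gave -0.34 and -0.28 with npq1 lor1 in channel 1, and -0.13 and -0.64 with wild type there. The values of the orientations, without centring of the slides, overlapped at both time points. Relative to each slide's median element, low light gave -0.06 and -0.25 with npq1 lor1 in channel 1, and -0.40 and -0.51 with wild type there. At 1 h these relative values were -0.16 and -0.22, and -0.30 and -0.75. On this relative scale the orientations did not overlap at either time point, and how many elements share that was not counted.

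At 6 h of high light PSBQ gave -0.69 and -0.60 on the slides with npq1 lor1 in channel 1, and -0.44 and -0.78 on those with wild type there. All 4 of these slides lay at or below -0.44, whereas 7 of the 8 earlier slides lay between -0.43 and -0.13. The exception was the wild-type-first slide of sample 2 at 1 h, at -0.64 from 2 copies. The -0.44 of sample 1 at 6 h is a mean over copies that disagreed, from -0.88 to 0.15.

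The mean PSBQ ratio of the 2 biological samples was -0.32 ± 0.13 for low light, -0.35 ± 0.16 after 1 h and -0.63 ± 0.09 after 6 h (SD, n = 2 each). These amount to differences of 1.25-fold, 1.27-fold and 1.54-fold between the strains. The low light ratio had a 95% interval of -0.50 to -0.13 and did not pass the test across all elements (limma adjusted p = 0.175, unadjusted p = 0.00397). The 1 h ratio had an interval of -0.54 to -0.16 and did not pass either (limma adjusted p = 0.111, unadjusted p = 0.00223). In low light 0.334% of 2396 tested elements passed and 7.97% had an unadjusted p under 0.05; at 1 h these shares were 0.704% and 11.8% of 2272, so few elements of any kind were called at these times. Both outcomes for PSBQ depended on the fit: limma's adjusted p ranged from 0.0204 to 0.9997 in low light and from 0.0099 to 0.782 at 1 h over 21 alternatives each, and passed in 4 of them at each time. Those 4 settings also called more elements of any kind than the main fit. They called 43 to 468 in low light, against 8, and 64 to 453 at 1 h, against 16.

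With the deposited sign, 52 of 2396 elements had a lower mean ratio than PSBQ in low light, 36 of 2272 at 1 h and, as a description, 15 of 2139 at 6 h. This place among the elements holds only if both orientations carry one strain direction. With the sign turned on the npq1-lor1-first slides, 509, 436 and 792 elements lay lower at these times. Ranks, likeness and calls among other loci with the sign turned were computed after seeing the data. Over the 8 slides of low light and 1 h, which did not enter the choice, PSBQ was negative on all 8, as were 1.37% of the 2195 elements with values on all 8. A negative ratio on all 12 slides, 6 h included, was found in 1% of 1895 elements. Relative to the median element of its slide PSBQ was lower on all 12 slides. The difference was 0.06 to 0.67 with npq1 lor1 in channel 1 (log2) and 0.30 to 0.86 with wild type there. These slides include those at 6 h, which entered the choice, and how many elements share this was not counted.

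**Figure D1:**
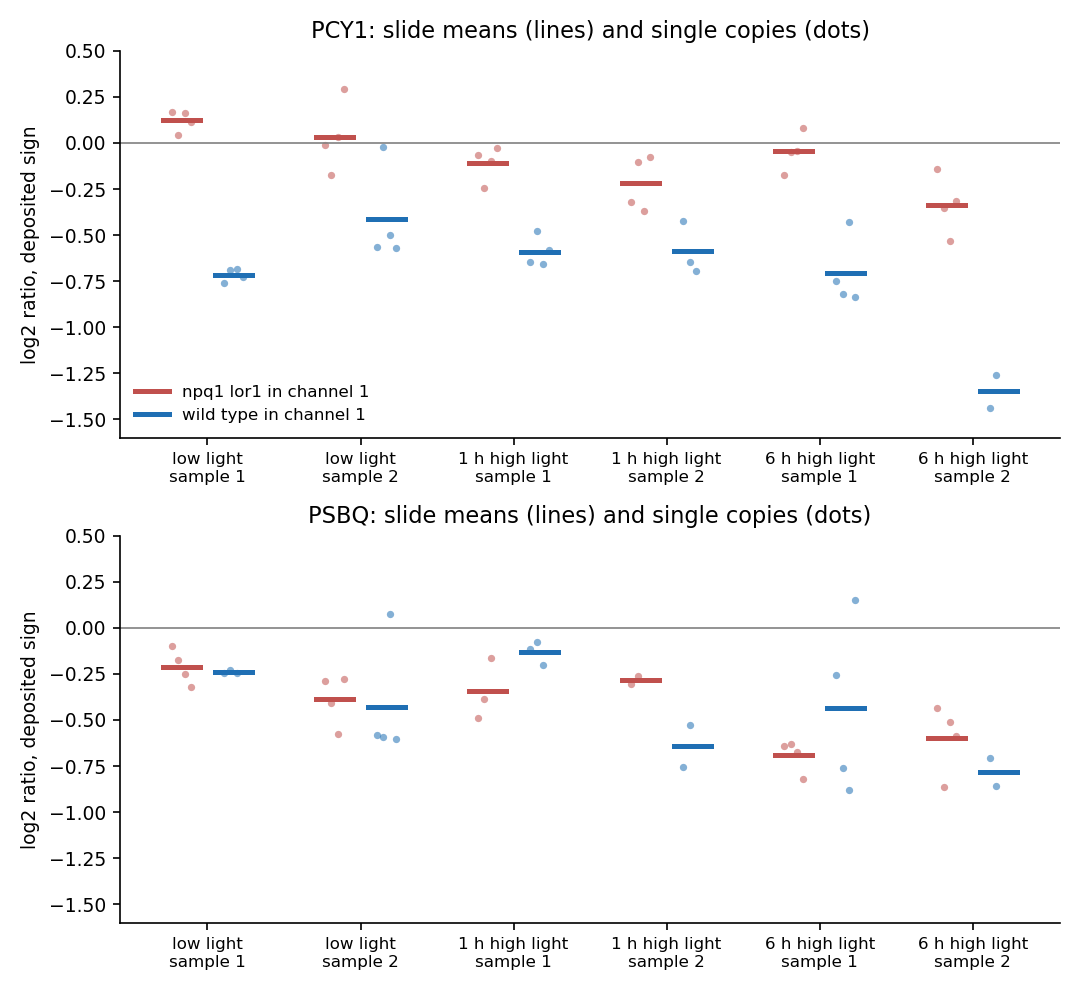
Log2 ratios with the deposited sign (vertical axis) for PCY1 (top) and PSBQ (bottom) in each of the 6 biological samples (horizontal axis); dots are single copies of the element, lines are slide means, red for npq1 lor1 in channel 1 and blue for wild type in channel 1. PSBQ lies below 0 on all 12 slides in both orientations, whereas the blue PCY1 lines lie between -1.35 and -0.41 and the red ones between -0.34 and 0.12.

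PCY1 behaved differently between the orientations. In low light it gave 0.12 and 0.03 on the slides with npq1 lor1 in channel 1 (samples 1 and 2), against -0.72 and -0.41 with wild type there. At 1 h it gave -0.11 and -0.22 with npq1 lor1 in channel 1, against -0.59 and -0.59 with wild type there. At 6 h it gave -0.05 and -0.34 with npq1 lor1 in channel 1, against -0.71 and -1.35 with wild type there. The orientations did not overlap at any time point, as for 36% of elements with values on all slides, and 10 of the 12 slides were negative, the 2 positive ones both from low light with npq1 lor1 in channel 1.

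Over the 6 slides of each kind, PCY1 averaged -0.09 ± 0.17 with npq1 lor1 in channel 1 and -0.73 ± 0.32 with wild type there (SD, n = 6 slides). Against its slide's median element, PCY1 differed by 0.02 on average in the first set and by -0.85 in the second. In the first set between 18.5% and 89.1% of elements lay below it, in the second between 0.0454% and 1.42%. The plastocyanin ratio was thus more negative where wild type was in channel 1. Each time-point mean holds both orientations equally. A dye effect of equal size on both slides of a pair cancels in it only if both orientations carry one strain direction. The fit with a dye term, given next, rests on the same condition and does not test it. With a dye term in a fit on all 12 slides the PCY1 ratio was -0.24 in low light and did not pass (limma adjusted p = 0.265; 0.00595 to 0.9997 over 22 alternatives), and was -0.38 at 1 h and passed (limma adjusted p = 0.0271; 0.0142 to 0.765 over 21). That fit called 75 elements at 1 h, against 16 in the main fit.

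The npq1-lor1-first slide minus the wild-type-first slide was positive for PCY1 in 6 of 6 biological samples, with 0.84 and 0.45 in low light, 0.48 and 0.37 at 1 h and 0.66 and 1.01 at 6 h. Its mean was 0.63 ± 0.25 (SD, n = 6). A difference that ran this way in all 6 samples was found in 6.75% of the 1895 elements with values on all slides, and one of a constant sign either way in 42%. Of these elements, 12 had a higher mean difference than PCY1 and 186 (9.82%) had one larger in size, while the median element had -0.18. The averaged ratios hold only if both orientations carry one strain direction. With the sign turned on the npq1-lor1-first slides, PCY1 would have -0.32, -0.21 and -0.42 in low light, at 1 h and after 6 h. PSBQ would have -0.02, -0.04 and 0.02. For PSBQ, as deposited, the exchange difference averaged 0.02 ± 0.23 (SD, n = 6), positive in 4 of 6 samples and lying between -0.26 and 0.36. Of the 1895 elements, 1802 had a mean difference larger in size and 475 a higher one. Slides were not centred for these values, and their medians differed by orientation. With each slide centred on its median, the mean exchange difference was 0.26 for PSBQ and 0.87 for PCY1.

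**Figure D2:**
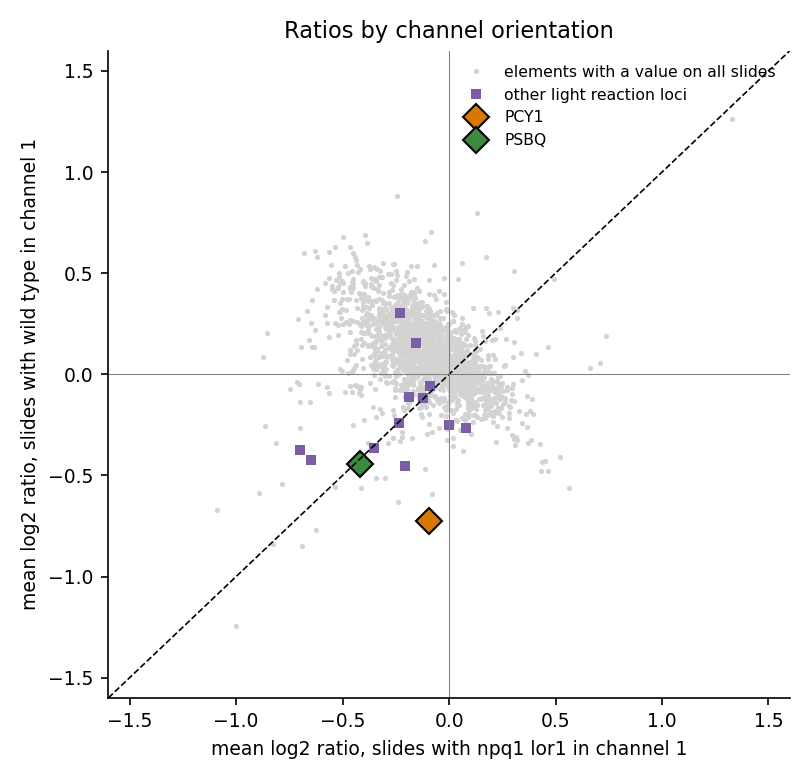
Mean log2 ratio over the 6 slides with npq1 lor1 in channel 1 (horizontal axis) against the mean over the 6 slides with wild type in channel 1 (vertical axis); grey points are the elements with a value on all slides, squares other light reaction loci, diamonds PCY1 and PSBQ, and the dashed line marks equal values. Without centring of the slides, PSBQ lies close to the line at -0.42 and -0.44, and PCY1 lies below it at -0.09 and -0.73.

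Averaged over exchanged slides, the PCY1 ratio was -0.30 and -0.19 in the low light samples, -0.35 and -0.40 at 1 h and -0.38 and -0.84 at 6 h. The time-point means were -0.24 ± 0.08 for low light, -0.38 ± 0.04 for 1 h and -0.61 ± 0.33 for 6 h of high light (SD, n = 2 each), or 1.18-fold, 1.30-fold and 1.53-fold between the strains. At 6 h the samples differed more than at the other times, and the -0.84 of sample 2 includes the slide at -1.35, which had a value for 2 of 4 copies and zeros at 43.2% of all its spots. Without that sample the 6 h ratio was -0.38, the same as the 1 h ratio to 2 decimals; without sample 1 it was -0.84.

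The low light PCY1 ratio had a 95% interval of -0.48 to -0.01 and did not pass (limma adjusted p = 0.588, unadjusted p = 0.0427). The 1 h ratio had an interval of -0.61 to -0.14 and did not pass (limma adjusted p = 0.166, unadjusted p = 0.00549). Here too the call depended on the estimate of the spread, which the wide 6 h samples enter: with 6 h left out of the fit the 1 h ratio passed (limma adjusted p = 0.0417; 0.0142 to 0.765 over 21 alternatives). Leaving out 6 h raised the elements called at 1 h from 16 to 27. On the slides with npq1 lor1 in channel 1 alone, the low light ratio changed sign, to 0.08. In all, 81 of 2396 elements had a lower mean ratio than PCY1 in low light, 28 of 2272 at 1 h and 17 of 2139 at 6 h, against 16, 85 and 3 with the sign turned on the npq1-lor1-first slides.

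The strain ratio of neither gene changed detectably over the first hour of high light. The 1 h ratio minus the low light ratio was -0.03 for PSBQ (95% interval -0.30 to 0.23, limma adjusted p = 0.983) and -0.13 for PCY1 (-0.46 to 0.20, limma adjusted p = 0.949). The lower ends of these intervals correspond to shifts of 1.23-fold for PSBQ and 1.38-fold for PCY1 in the strain ratio, and 0.0456% of 2195 elements passed this test. The 6 h ratio minus the low light ratio was -0.31 for PSBQ and -0.37 for PCY1, and the 6 h ratio minus the 1 h ratio was -0.28 for PSBQ and -0.23 for PCY1, given as descriptions. For PCY1 these changes rested on sample 2 at 6 h: without it the change was -0.13 from low light and -0.00034 from 1 h, and without sample 1 at 6 h it was -0.60 and -0.47. For PSBQ, leaving out 1 biological sample at a time gave -0.40 to -0.22 from low light and -0.39 to -0.17 from 1 h, the smaller sizes being those without sample 1 of low light and without sample 1 at 1 h. For PSBQ both 6 h samples lay below all 4 earlier ones (-0.56 and -0.69, against -0.46 to -0.23), and a separation of 6 h from all earlier samples in either direction was seen in 23.1% of elements. For PCY1 the 6 h samples overlapped the earlier ones, with sample 1 at -0.38 inside the 1 h range.

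**Figure D3:**
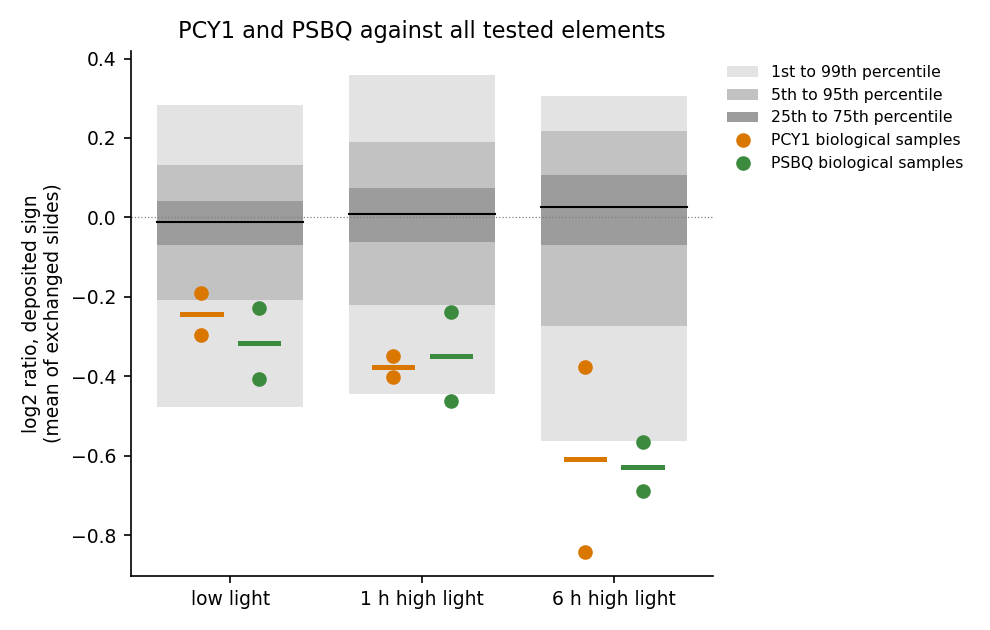
Log2 ratios averaged over exchanged slides (vertical axis) at each time point; dots are the 2 biological samples of PCY1 (orange) and PSBQ (green), coloured lines their means, and grey bands the percentiles of the mean ratio over all tested elements, with the median as a black line. With the deposited sign both genes lie below the 5th percentile in their means at each time and below the 1st percentile at 6 h.

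At 6 h, the contrast used in the choice, both elements were past the threshold of 0.05, as were 2.01% of 2139 tested elements. The order of mean levels over time was the same for both, least negative in low light and most negative at 6 h. The choice by the 6 h ratio favours this order, and how many elements share it was not counted. The change from low light to 1 h passed for neither gene. Without sample 2 at 6 h, PCY1 stood at -0.38 both at 1 h and at 6 h. The samples of neighbouring time points did not overlap for PCY1 between 1 h and low light, as for 38.3% of elements, nor for PSBQ between 6 h and 1 h, as for 34.3% of elements, so such gaps are common among all elements; the samples overlapped for PCY1 between 6 h and 1 h and for PSBQ between 1 h and low light.

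Side by side, the averaged ratios of the genes were close. PSBQ minus PCY1 was 0.07 and -0.22 in the low light samples, 0.11 and -0.06 at 1 h and -0.19 and 0.15 at 6 h. The sign varied within each time point, and the mean difference was -0.07 ± 0.20 for low light, 0.03 ± 0.12 for 1 h and -0.02 ± 0.24 for 6 h (SD, n = 2 each). The likeness was weaker on single slides. There the orientations of PCY1 did not overlap at any time, and those of PSBQ, without centring, overlapped at each. Relative to slide medians, those of PSBQ overlapped at 6 h only.

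The elements most like each gene were ranked by the root mean square difference over the 6 biological-sample ratios, among 1894 other elements with values in all samples. For PCY1 the nearest of all was PSBQ, at 0.15, where the median element stood at 0.48. The next locus-tagged elements were CHLRE_05g238332v5 at 0.16, CHLRE_03g158000v5 at 0.22, CHLRE_09g405850v5 at 0.25 and CHLRE_10g420350v5 at 0.26. Among elements without a locus, numbers 671 and 554 were nearest, both at 0.17. The choice of both genes by their 6 h ratio favours this closeness, and so does the deposited sign. Over the 4 samples of low light and 1 h alone, a setting chosen after seeing the data, PSBQ had rank 15 of 2194 in likeness to PCY1, at 0.13. With the sign turned on the npq1-lor1-first slides it had rank 480 of 1894, at 0.34 where the median element stood at 0.44. The likeness thus depends on both orientations carrying one strain direction.

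For PSBQ the nearest element was number 671, at 0.11, followed among tagged loci by CHLRE_05g238332v5 at 0.12 and PCY1 at 0.15, which had rank 4 among all elements. CHLRE_09g405850v5, CHLRE_16g673650v5 and CHLRE_03g158000v5 came next among tagged loci, at 0.21, 0.21 and 0.22, and element 71 without a locus stood at 0.14. CHLRE_05g238332v5 resembled PSBQ in orientation as well, with -0.35 on slides with npq1 lor1 in channel 1 and -0.36 with wild type there. Taken over the 12 single slides, PSBQ had rank 6 in likeness to PCY1 and PCY1 had rank 55 in likeness to PSBQ, with a difference of 0.37. Over the low light and 1 h samples alone, PCY1 had rank 22 of 2194 in likeness to PSBQ. With the sign turned on the npq1-lor1-first slides it had rank 1634 of 1894 over all samples. Its difference of 0.34 was then larger than that of the median element, 0.21.

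The other light reaction genes on the array were taken from a list of 48 nuclear loci for photosystems, antennae, cytochrome b6f, ferredoxin and ATP synthase. The annotation used gives tags without product names, so membership in the list rests on general knowledge of this genome and the loci are given by tag. Of the 48, 11 were on the array as 13 elements (3 of them for CHLRE_06g259900v5). In low light 1 of 12 tested elements passed, with a negative ratio, CHLRE_17g720250v5 at -0.48 ± 0.11 (SD, n = 2, limma adjusted p = 0.0342), where 0.292% of all tested elements passed with a negative ratio. In all, 3 of the 12 had an unadjusted p under 0.05, against 7.97% of all tested elements. At 1 h 0 of 13 passed in limma, against 0.704% of all tested elements, and 5 had an unadjusted p under 0.05, against 11.8%.

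At 6 h 5 of 12 passed, all with negative ratios and none with a positive one, where 1.68% of all tested elements passed with a negative ratio. Among locus-tagged elements, PCY1, PSBQ and the list included, 8 of 79 did so. The list was made with earlier results of these data known, so its counts are a description. The 5 listed elements were CHLRE_08g365900v5 at -1.03, CHLRE_16g673650v5 at -0.94, CHLRE_10g420350v5 at -0.50, CHLRE_05g238332v5 at -0.46 and CHLRE_17g720250v5 at -0.41 (limma adjusted p from 0.00101 to 0.0219). With the sign turned on the npq1-lor1-first slides, 1 of the 12 passed in limma at 6 h, with a positive ratio. In that setting 479 of all 2139 tested elements passed, 64 of them with a negative ratio. Of the 12, 6 were negative and their median was 0.0032, against 0.073 over all elements. These calls too thus depend on both orientations carrying one strain direction. As deposited, the first 2 were more negative than PCY1 and PSBQ, the other 3 less so. Over the 12 tested, all 12 were negative at 6 h with a median of -0.36, against a median of 0.03 over all 2139 elements. In low light 6 of 12 were negative with a median of -0.02, against -0.01 over 2396 elements, and at 1 h 12 of 13 with a median of -0.16, against 0.01 over 2272.

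With the deposited sign, PSBQ and PCY1 already had ratios below most of these loci in low light: 2 of the 12 tested were lower than PSBQ and 4 lower than PCY1. Their place within the list was not computed with the sign turned. At 1 h 2 of 13 were lower than PSBQ and 1 was lower than PCY1, CHLRE_04g232104v5 at -0.50 ± 0.27 (SD, n = 2, limma adjusted p = 0.111). The 4 largest ratios of the list at 1 h were those of CHLRE_04g232104v5, CHLRE_05g238332v5 at -0.35, CHLRE_08g365900v5 at -0.33 and CHLRE_16g673650v5 at -0.25. In low light the largest after CHLRE_17g720250v5 were CHLRE_16g673650v5 at -0.41, CHLRE_05g238332v5 at -0.26 and CHLRE_08g365900v5 at -0.25. Across all 79 locus-tagged elements tested at 6 h, 3 were lower than PCY1 and 2 lower than PSBQ.

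**Figure D4:**
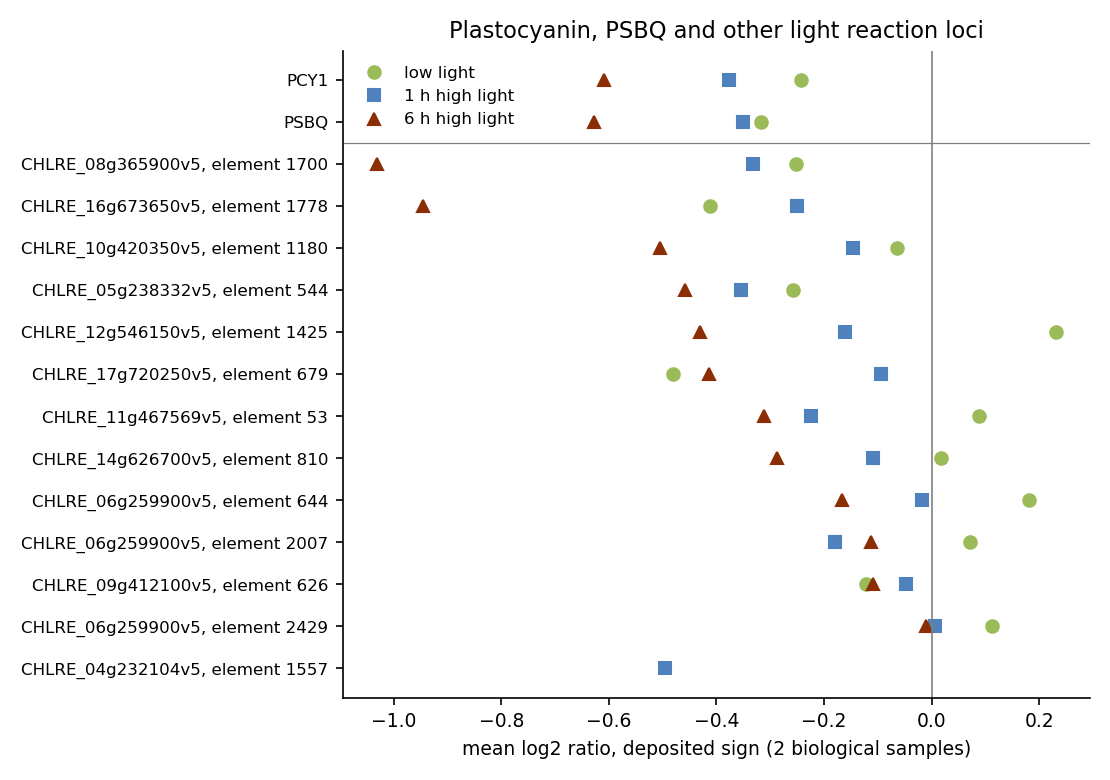
Mean log2 ratio of 2 biological samples with the deposited sign (horizontal axis) for PCY1, PSBQ and the 13 elements of other light reaction loci (rows), in low light (circles), at 1 h (squares) and at 6 h of high light (triangles). PCY1 and PSBQ lie at -0.61 and -0.63 at 6 h, between the 2 most negative loci of the list and the rest; CHLRE_04g232104v5 was tested at 1 h only.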

How the data were processed

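The deposited values are log2 ratios of the channels of a slide, which the authors had normalized with SNOMAD, per the labels (settings, version, background correction and spot filter: not given in the sources used here). Centring is not stated, and slide medians without zeros differed by orientation. They lay between -0.17 and -0.02 with npq1 lor1 in channel 1 and between 0.04 and 0.17 with wild type there. Zeros were treated as missing. Spots were read as 4 copies of 2880 elements, since all 106 clones stand on 4 spots at that distance (median r between copies 0.62). At least 2 copies were averaged per slide, then both slides per biological sample. limma 3.58.1 in R 4.3.3 fitted 1 mean per time point and 1 spread per element (lmFit, eBayes), two-sided with Benjamini-Hochberg adjustment over all elements tested, threshold 0.05; it was tested on simulated data. The labels call the samples biological replicates. The genes, lists and tests were chosen with earlier results of these data known. Named elements are both genes, their 5 nearest tagged and 2 nearest untagged elements, and listed loci called or among the 4 largest. All 100 loci matched the gene table of assembly Chlamydomonas_reinhardtii_v5.5; as no build is named for the array, coordinates are not printed. The number of slides limits the precision.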

Additional observations from a re-analysis of the deposited data

How the results depend on the processing

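Unless stated, the cause of the changes below was not tested. In low light PCY1 passed limma's threshold with 4 copies needed per slide and with its own time point's spread (-0.24 each) and with the sign turned on npq1-lor1-first slides (-0.32), and was 0.078 on npq1-lor1-first slides alone. PSBQ passed there on npq1-lor1-first slides alone (-0.30), and with its own spread or all 12 slides fitted singly (random block: biological sample), without and with a dye term (-0.32 each). Fits on single slides treat exchanged slides partly as separate values. These low light settings also called more elements of any kind, against 8 in the main fit. Counts were 94 with 4 copies needed, 114 with own-time spread, 842 with the sign turned and 468 on npq1-lor1-first slides alone. With 12 slides fitted singly they were 45, and 43 with the dye term. At 1 h PCY1 passed on wild-type-first slides alone (-0.59), with the sign turned (-0.21), and with its own spread, without 6 h or either of its samples, or with the dye term (-0.38 each). PSBQ passed at 1 h on npq1-lor1-first slides (-0.31), and with its own spread or 12 slides without and with the dye term (-0.35 each). The change from low light to 1 h was 0.11 for PCY1 with the sign turned, and for PSBQ 0.098 with zeros kept and 0.030 with slides scaled alike. At 6 h PCY1 had -0.19 on npq1-lor1-first and -1.03 on wild-type-first slides. PSBQ had -0.53 with zeros kept, -0.51 with the running median of 51 spots subtracted and 0.018 with the sign turned, where its changes to 6 h were 0.035 from low light and 0.055 from 1 h. With that running median PSBQ's exchange difference was 0.32. Without 1 biological sample at a time, PCY1 lay between -0.40 and -0.35 at 1 h, and PSBQ's change to 1 h between -0.14 and 0.080. With the biological sample number as a replicate block, the low light ratios were -0.24 for PCY1 and -0.32 for PSBQ (limma adjusted p = 0.633 and 0.141) and no call of either gene changed. The labels do not state that these numbers pair samples across time points. Sample differences correlated at r = 0.23, -0.02 and -0.15 between time points, which cannot decide whether cultures were paired. Counts of called elements moved from 8 to between 0 and 842 in low light, from 16 to between 0 and 796 at 1 h, from 43 to between 0 and 479 at 6 h, and from 1 to between 0 and 4 for the change to 1 h; the highest counts at each time point came with the sign turned. With 4 copies needed, PCY1 kept a value in low light only and PSBQ at no time.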
